A study of Saccharomyces cerevisiae with 7 samples.

Results

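The mitochondrial genome of *Saccharomyces cerevisiae* carries 8 protein genes that code for subunits of the respiratory chain, the ATP synthase and the mitochondrial ribosome: *COX1*, *COX2*, *COX3*, *COB*, *ATP6*, *ATP8*, *OLI1* and *VAR1*. They were taken by name from the gene tables. They are 8 of 18 rows on chrM and 8 of 5110 genes in all, and every one of them had reads in every library. RNA-seq of ribo-minus RNA, the fraction left after rRNA removal, was made from yeast in midlog growth in YPD, a rich glucose medium. The survey held wild type (BY4741, a laboratory haploid strain) and the deletion strains *fpr3*, *fpr4*, *fpr3fpr4* and *sir2*, named for the genes they lack and all isogenic to BY4741 per the methods. A second set held *trf5fpr3*, which lacks *TRF5* and *FPR3* but keeps a functional *FPR4*, and *trf5fpr3fpr4*, which lacks all of them, both derived from a synthetic genetic array (SGA) cross of a Y7092 query strain with the deletion collection. Each genotype was 1 library. No difference below therefore has a replicate check, a test on the reads compares 2 libraries and not 2 genotypes, and every interval covers counting error only.

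In mitochondria a single-subunit RNA polymerase, Rpo41, starts at a short promoter and makes long transcripts that hold several genes. These are cut into messengers that carry no poly(A) tail, so their amounts depend on processing and decay as well as on initiation. *COX1* and *COB* are split by self-splicing group I and group II introns, several of which hold reading frames of their own. *COX1*, *COX2* and *COX3* code for the catalytic core of cytochrome c oxidase (complex IV) and *COB* for cytochrome b of complex III. *ATP6*, *ATP8* and *OLI1* code for membrane subunits of the ATP synthase (complex V), and *VAR1* for a protein of the small mitochondrial ribosomal subunit. The deleted genes act in the nucleus: Fpr3 and Fpr4 are paralogous nucleolar prolyl isomerases and histone chaperones, Sir2 is a histone deacetylase, and Trf5 is the poly(A) polymerase of the TRAMP5 complex of RNA surveillance. In such bulk cultures, more mitochondrial RNA per cell and more cells with an intact mitochondrial genome cannot be told apart.

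Total counts ran from 627679 to 1242534 per library, with a median of 1092722, and were lowest in the SGA pair. The deleted genes had 0 reads in their own libraries, except *TRF5*, with 2 reads in *trf5fpr3fpr4*. *FPR4* had 186 reads in *trf5fpr3*. The query strain carried a *URA3*-marked *FPR4* plasmid per the methods and *URA3* had 0 reads in all 7 libraries, so whether this *FPR4* was on the chromosome or on a plasmid was not settled. The deposited name of the *trf5fpr3* table also differs from its label, while *FPR3* and *TRF5* had 0 reads there. Of the other 10 chrM rows, 9 lie inside *COX1* or *COB* and count the same reads again. They add 2.34% to 3.41% to the library totals, which are the denominator of every RPKM (reads per kilobase of the gene, scaled to the library's counted reads).

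The sequence around the genes shows how they are grouped on the chromosome, and is given here because the comparisons below are also read by transcription unit. All 8 genes lie on the same strand. The promoter nonanucleotide ATATAAGTA was searched in the 2000 bases before each start codon, on the gene's strand, and was found before 3 of the 8 genes. On the mitochondrial reference (sacCer3, the build of the files, RefSeq), each site is given with 10 bases on both sides and the motif in capitals, at chrM:13339-13367 for *COX1*, chrM:34868-34896 for *COB*, and chrM:46061-46089 and chrM:46139-46167 for *OLI1*.
COX1 promoter: ataagtattgATATAAGTAatagatataa
COB promoter: aagaaatattATATAAGTAatatataaaa
OLI1 first site: attaatattaATATAAGTAatatatatag
OLI1 second site: atacacatttATATAAGTAtatatatata

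The motif ends 461 bases before the *COX1* start codon, 1654 bases before that of *COB*, and 644 and 566 bases before that of *OLI1*. It occurs 11 times on the genes' strand of chrM and 3 times on the other, and 27.1% of all 2000-base windows of chrM hold it on either strand. That is a looser rule than the search before the genes, which took their strand only. A match is a description of the letters and not of use. *ATP8* follows *COX1* after 964 bases and *ATP6* follows *ATP8* after 674 bases, while *VAR1* follows *OLI1* after 1947 bases. No match stood in the window of *ATP8*, *ATP6*, *VAR1*, *COX2* or *COX3*. Below, *COX1*, *ATP8* and *ATP6* are taken as 1 unit and *OLI1* and *VAR1* as another, as is known for this genome, and *COB*, *COX2* and *COX3* are each described alone.

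The 3′ ends of these messengers are known to lie at a conserved dodecamer. The longest word shared by the 600 bases after the stop codons of at least 6 of the 8 genes was AATAATATTCTT, of 12 letters, here in capitals with 9 bases on both sides. The sites stand at chrM:26761-26790 for *COX1*, chrM:29344-29373 for *ATP6*, chrM:43736-43765 for *COB*, chrM:50668-50697 for *VAR1*, chrM:74567-74596 for *COX2* and chrM:80114-80143 for *COX3*.
COX1 3′ word: taatataatAATAATATTCTTataaaaata
ATP6 3′ word: cccccttttAATAATATTCTTttatctaat
COB 3′ word: taatactttAATAATATTCTTaaaaataat
VAR1 3′ word: aataaataaAATAATATTCTTaatttttat
COX2 3′ word: aataattatAATAATATTCTTaaatataat
COX3 3′ word: tattattatAATAATATTCTTacaaatata

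The word starts 69 bases after the stop codon of *COX1*, 87 after that of *ATP6*, 98 after *COB*, 580 after *VAR1*, 63 after *COX2* and 101 after *COX3*. It occurs 9 times on the genes' strand of chrM and 2 times on the other, and 7.61% of all 600-base windows of chrM hold it on either strand. That is a looser rule than the sites above, which are on the genes' strand. *ATP8* and *OLI1* had no match in their windows.

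*ATP8* is the shortest of the 8 genes and the one whose level varied most between libraries, so it is shown whole (chrM:27666-27812, 147 bases), with its start and stop codons in capitals.
ATP8: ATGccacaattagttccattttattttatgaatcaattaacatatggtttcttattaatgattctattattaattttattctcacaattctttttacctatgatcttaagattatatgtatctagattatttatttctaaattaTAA

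The gene is not much longer than 1 read of these libraries of 100-base paired reads, and it had 24 to 78 reads per library. *VAR1* had the fewest reads, 17 to 31. It is 10.4% G and C, the lowest of the 8, against 33.3% for *OLI1*, the highest, and 17.1% for chrM as a whole. Its longest stretch without G or C has 127 bases, and reads placed in several positions had been removed before counting, a step whose part in the *VAR1* level was not tested.

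**Figure D1:**
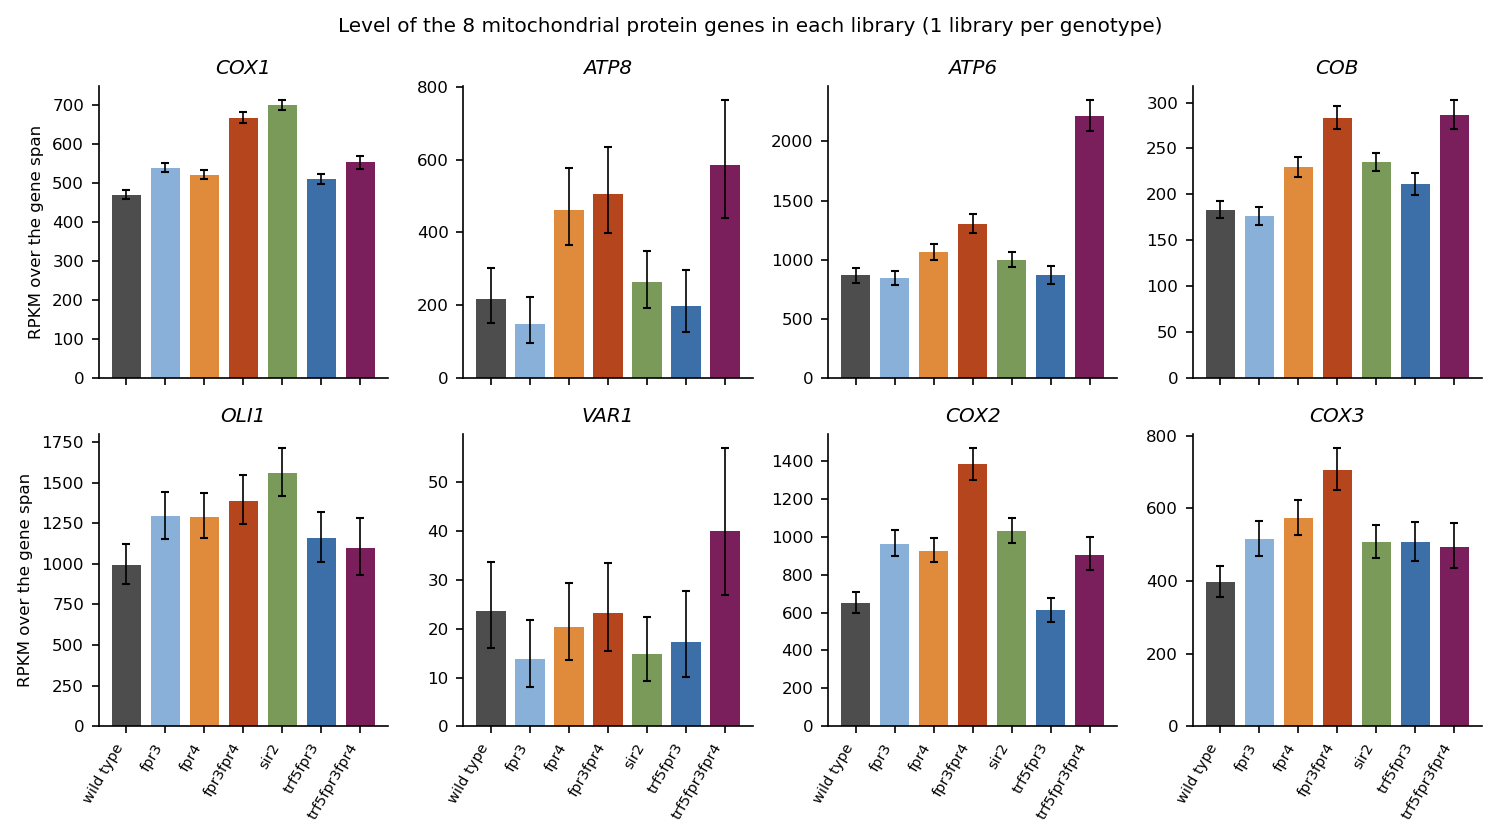
Level of each gene (RPKM over the gene span, linear axes from 0) in the 7 libraries, 1 bar per library, with 95% Poisson intervals that cover counting error only. *ATP8* and *ATP6* stand highest in the 3 libraries that lack *FPR4*, while *COX1* and *OLI1* stand highest in *sir2*.

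The genes of complex IV were lowest in wild type or in *trf5fpr3*. *COX1* stood at 470.0 RPKM in wild type, 539 in *fpr3*, 520.1 in *fpr4*, 666 in *fpr3fpr4*, 699 in *sir2*, 510.0 in *trf5fpr3* and 552 in *trf5fpr3fpr4*. *COX2* stood at 652 RPKM in wild type, 964 in *fpr3*, 927 in *fpr4*, 1381 in *fpr3fpr4*, 1032 in *sir2*, 612 in *trf5fpr3* and 906 in *trf5fpr3fpr4*. *COX3* stood at 398 RPKM in wild type, 516 in *fpr3*, 573 in *fpr4*, 706 in *fpr3fpr4*, 508 in *sir2*, 506 in *trf5fpr3* and 494 in *trf5fpr3fpr4*. *COX2* and *COX3* thus had their highest level in *fpr3fpr4*, and *COX1* in *sir2*, with *fpr3fpr4* next.

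*COB*, the cytochrome b gene, stood at 184 RPKM in wild type, 176 in *fpr3*, 229.6 in *fpr4*, 284 in *fpr3fpr4*, 235 in *sir2*, 211 in *trf5fpr3* and 287 in *trf5fpr3fpr4*. The libraries that lack both paralogs were the highest, and their counting intervals overlap each other but no other library's. *COX1* and *COB* rows span their introns: exons make up 1605 of the 12884 bases of *COX1* and 1158 of the 7108 bases of *COB*. Their reads therefore include intron RNA, and their RPKM cannot be set against that of the 6 genes without introns.

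Among the genes of complex V, *ATP6* stood at 869 RPKM in wild type, 845 in *fpr3*, 1062 in *fpr4*, 1304 in *fpr3fpr4*, 999.8 in *sir2*, 869 in *trf5fpr3* and 2214 in *trf5fpr3fpr4*. *ATP8* stood at 218 RPKM in wild type, 149 in *fpr3*, 461 in *fpr4*, 505 in *fpr3fpr4*, 263 in *sir2*, 199 in *trf5fpr3* and 585 in *trf5fpr3fpr4*. Both had their highest level in *trf5fpr3fpr4* and their lowest in *fpr3*. *OLI1*, the gene of the proteolipid ring subunit, stood at 994 RPKM in wild type, 1292 in *fpr3*, 1291 in *fpr4*, 1389.6 in *fpr3fpr4*, 1561 in *sir2*, 1157 in *trf5fpr3* and 1097 in *trf5fpr3fpr4*.

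*VAR1* stood at 23.7 RPKM in wild type, 13.8 in *fpr3*, 20.3 in *fpr4*, 23.2 in *fpr3fpr4*, 14.8 in *sir2*, 17.3 in *trf5fpr3* and 39.9 in *trf5fpr3fpr4*. On a per-length scale, the order of the genes without introns was *OLI1*, *ATP6* and *COX2* at the top, then *COX3*, *ATP8* and *VAR1*. *OLI1* led in 6 of the 7 libraries, and *ATP6* led in *trf5fpr3fpr4*. *ATP6* and *COX2* changed places between libraries, *COX3* and *ATP8* changed places in *trf5fpr3fpr4*, and *VAR1* was last in all 7. In *fpr3fpr4*, the intervals of *OLI1* and *COX2* overlapped, as did those of *COX2* and *ATP6*.

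The highest library over the lowest came to 3.92 for *ATP8*, 2.90 for *VAR1*, 2.62 for *ATP6*, 2.26 for *COX2*, 1.78 for *COX3*, 1.63 for *COB*, 1.57 for *OLI1* and 1.49 for *COX1*. The median of this ratio was 2.02 over the 8 genes and 2.07 over the 4376 genes with a mean RPKM of at least 10. *ATP6* reached only 1.54 within the 5 survey libraries, and *VAR1* only 1.72, so much of the range of both rests on *trf5fpr3fpr4*, for *VAR1* on 30 reads.

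Together the 8 genes took 0.914% of the counted reads in wild type (95% Wilson interval 0.897 to 0.932). The share was 1.03% in *fpr3* (1.02 to 1.05), 1.07% in *fpr4* (1.05 to 1.09) and 1.37% in *fpr3fpr4* (1.34 to 1.39). It was 1.31% in *sir2* (1.29 to 1.33), 0.994% in *trf5fpr3* (0.973 to 1.02) and 1.24% in *trf5fpr3fpr4* (1.21 to 1.26). Wild type was the lowest library and *fpr3fpr4* the highest, at 1.49 times the wild-type share. Without *COX1* and *COB*, the other 6 genes took 0.178% in wild type, 0.214% in *fpr3*, 0.238% in *fpr4*, 0.306% in *fpr3fpr4*, 0.239% in *sir2*, 0.187% in *trf5fpr3* and 0.320% in *trf5fpr3fpr4*. Wild type was again the lowest, but the highest was now *trf5fpr3fpr4*, and *sir2* was level with *fpr4*.

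**Figure D2:**
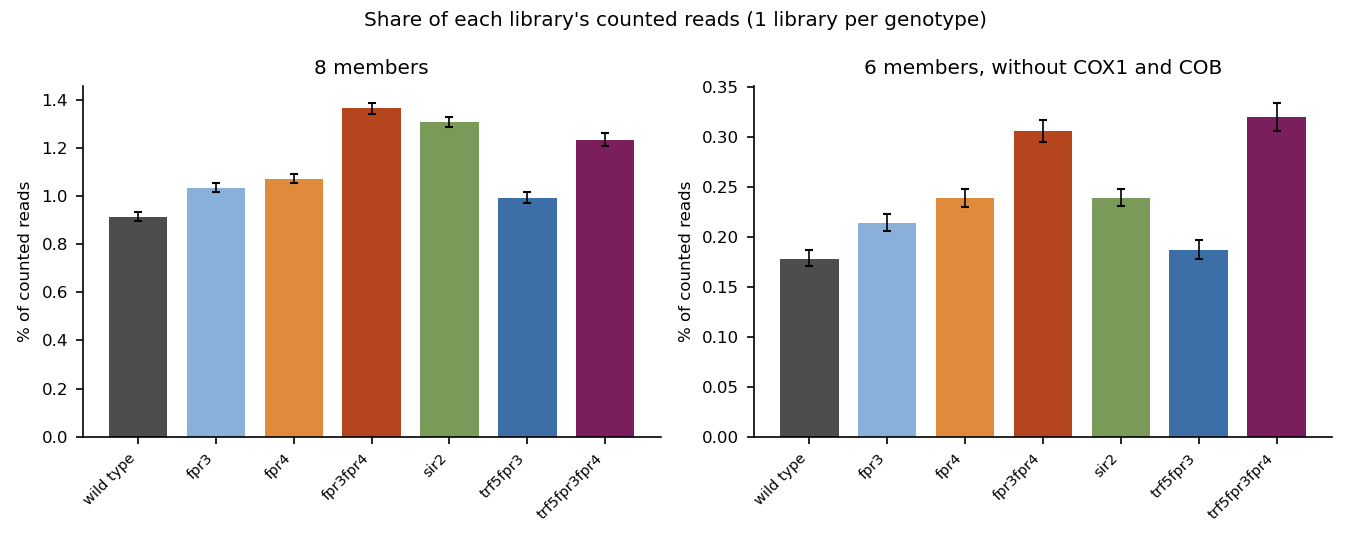
Share of counted reads (%) in the 8 genes, left, and in the 6 genes without introns, right, 1 bar per library with 95% Wilson intervals. The left share runs from 0.914% in wild type to 1.37% in *fpr3fpr4*, and the right share from 0.178% in wild type to 0.320% in *trf5fpr3fpr4*.

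Within chrM, with each read counted once, *COX1* took most reads in every library, from 57.2% in *trf5fpr3fpr4* to 68.3% in *sir2*. *COB* took 12.0% to 16.4%, *COX2* 4.62% to 7.59%, *COX3* 3.12% to 4.29%, *OLI1* 2.04% to 2.86%, *ATP8* 0.211% to 0.692% and *VAR1* 0.134% to 0.384%. *ATP6* took between 5.91% and 7.66% in 6 libraries and 13.9% (13.1 to 14.7) in *trf5fpr3fpr4*, outside the interval of every other library. The lower *COX1* share and the higher *ATP6* share of that library are parts of 1 total and are not independent.

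The comparisons ask how loss of Fpr3, of Fpr4 or of both, or of Sir2, changes the transcriptome, and how loss of Fpr4 does so where Fpr3 and Trf5 are already absent. A gene was called when a chi-square test of its reads against all other reads of the 2 libraries passed a Benjamini-Hochberg adjusted level of 0.05 over all genes tested, with a change of at least 1.3-fold on log2(RPKM + 1) and more than 5 reads in both libraries together. All fold changes below are on that scale, with 95% exact binomial intervals of the reads. The shares of all genes called, given beside the counts of members, belong to this rule. A change of a given size is called more readily in a gene with more reads. The median gene had 35 to 55 reads per library, whereas every member but *ATP8* and *VAR1* had at least 159. The shares are therefore not matched to the members on read depth, nor to the nuclear lists below. For single comparisons no such share was computed relative to the median of all genes or at other folds, so those counts have no background. Across all genes tested, the median log2 fold change was -0.10 in *fpr3*, -0.10 in *fpr4*, -0.09 in *fpr3fpr4* and -0.13 in *sir2* against wild type, and 0.20 in *trf5fpr3fpr4* against *trf5fpr3*. No member was called lower in any comparison. The first 4 comparisons share the wild-type library, in which 5 of the 8 genes were at their lowest or next to lowest level, so they are given side by side and not as support for each other.

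In *fpr3*, 1 of the 8 genes was called higher, against 4.19% of the 4771 genes tested. It was *COX2*, from 539 to 796 reads, with a log2 fold change of 0.56 (0.40 to 0.72). *COX3* and *OLI1*, at 0.38 each, lay just below the 1.3-fold limit, and *COX1* was at 0.20. *ATP6* at -0.04 and *COB* at -0.06 had intervals that include 0, and both turned positive, to 0.06 and 0.05, once the median of all genes was set to 0. *ATP8* went from 35 to 24 reads and *VAR1* from 31 to 18, with intervals from -1.36 to 0.25 and from -1.71 to 0.10. The median over the 8 genes was 0.08. Relative to the median of all genes, or scaled to reads outside chrM, 3 genes were called in place of 1, and at a limit of 1.5-fold 0 were. These counts have no share of all genes beside them.

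In *fpr4*, 3 of the 8 genes were called higher, against 3.87% of the 4777 genes tested. *ATP8* went from 35 to 78 reads, a log2 fold change of 1.08 (0.49 to 1.7). *COX3* followed at 0.53 (0.33 to 0.73) and *COX2* at 0.51 (0.35 to 0.67). *OLI1* at 0.38, *COB* at 0.32, *ATP6* at 0.29 and *COX1* at 0.15 had intervals above 0 but stayed under 1.3-fold. *VAR1*, with 28 reads against 31, had an interval from -1.01 to 0.56. The median over the 8 genes was 0.35. Relative to the median of all genes 6 genes were called in place of 3, a count with no share of all genes beside it.

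In *fpr3fpr4*, 7 of the 8 genes were called higher, against 5.07% of the 4755 genes tested. *ATP8* had a log2 fold change of 1.21 (0.62 to 1.84), from 35 to 75 reads. *COX2* went from 539 to 1054 reads, a log2 fold change of 1.08 (0.93 to 1.23), and *COX3* from 352 to 577 reads, 0.83 (0.63 to 1.02). *COB* was at 0.63 (0.53 to 0.73), *ATP6* at 0.59 (0.45 to 0.72), *COX1* at 0.50 (0.46 to 0.55) and *OLI1* at 0.48 (0.24 to 0.73). *VAR1* was not called, with 28 reads against 31, a log2 fold change of -0.03 that became 0.06 relative to the median of all genes. The genes of complexes III, IV and V thus all had higher levels in this library than in wild type, with a median over the 8 genes of 0.61.

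Against each single mutant, the double mutant had higher values for all 8 genes, though fewer calls. The median of all genes was 0.01 in each of these comparisons, and the share of all genes above 0 was not computed. Against *fpr3*, 5 of the 8 were called higher, against 5.09% of the 4757 genes tested: *ATP8*, *COB*, *ATP6*, *COX2* and *COX3*. There *OLI1*, with 324 reads against 326, and *VAR1*, with 28 against 18, had intervals that include 0. They ran from -0.12 to 0.33 and from -0.15 to 1.69. Against *fpr4*, 1 of the 8 was called higher, *COX2* at 0.57 (0.44 to 0.71), against 3.59% of the 4758 genes tested. The other 7 lay between 0.11 and 0.36 against *fpr4*, and the intervals of *ATP8*, *OLI1* and *VAR1* included 0. These 2 comparisons were added after seeing the data and share the *fpr3fpr4* library.

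In *sir2*, 3 of the 8 genes were called higher, against 5.20% of the 4766 genes tested. *COX2* was at 0.66 (0.51 to 0.82), *OLI1* at 0.65 (0.42 to 0.88) and *COX1* at 0.57 (0.53 to 0.62), the last from 6619 to 11193 reads. *COB* at 0.36 and *COX3* at 0.35 lay just under the limit, *ATP6* was at 0.20, and the intervals of *ATP8* and *VAR1* included 0. *OLI1* had a larger value than *ATP8* in *sir2* and a smaller one in *fpr3fpr4*, a difference that was not tested. The median over the 8 genes was 0.35. Relative to the median of all genes 5 genes were called, again a count with no share of all genes beside it.

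In *trf5fpr3fpr4* against *trf5fpr3*, 5 of the 8 genes were called higher, against 20.7% of the 4733 genes tested. *ATP8* went from 24 to 54 reads, a log2 fold change of 1.55 (0.84 to 2.31), and *ATP6* from 555 to 1084 reads, 1.35 (1.20 to 1.5). *VAR1* went from 17 to 30 reads, 1.16 (0.30 to 2.15), *COX2* was at 0.57 (0.36 to 0.77) and *COB* at 0.44 (0.33 to 0.55). *COX1* at 0.11, *COX3* at -0.04 and *OLI1* at -0.08 were not called. Relative to the median of all genes, which was itself 0.20, 3 genes were called, with no share of all genes computed: *ATP8*, *ATP6* and *VAR1*. On that scale *COX2* was at 0.36, *COB* at 0.23, *COX1* at -0.09, *COX3* at -0.24 and *OLI1* at -0.28. The 8 genes therefore did not share 1 direction in this pair, while in *fpr3fpr4* against wild type all 8 lay above the median of all genes. Those 2 comparisons also differ in *FPR3*, which is absent from both libraries of the SGA pair but only from *fpr3fpr4* in the other. In *fpr3fpr4* against *fpr3*, where only *FPR4* differs, all 8 also lay above the median of all genes, though the intervals of *OLI1* and *VAR1* include it. Whether absence of Trf5 or the SGA background goes with the difference from that comparison cannot be told apart.

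**Figure D3:**
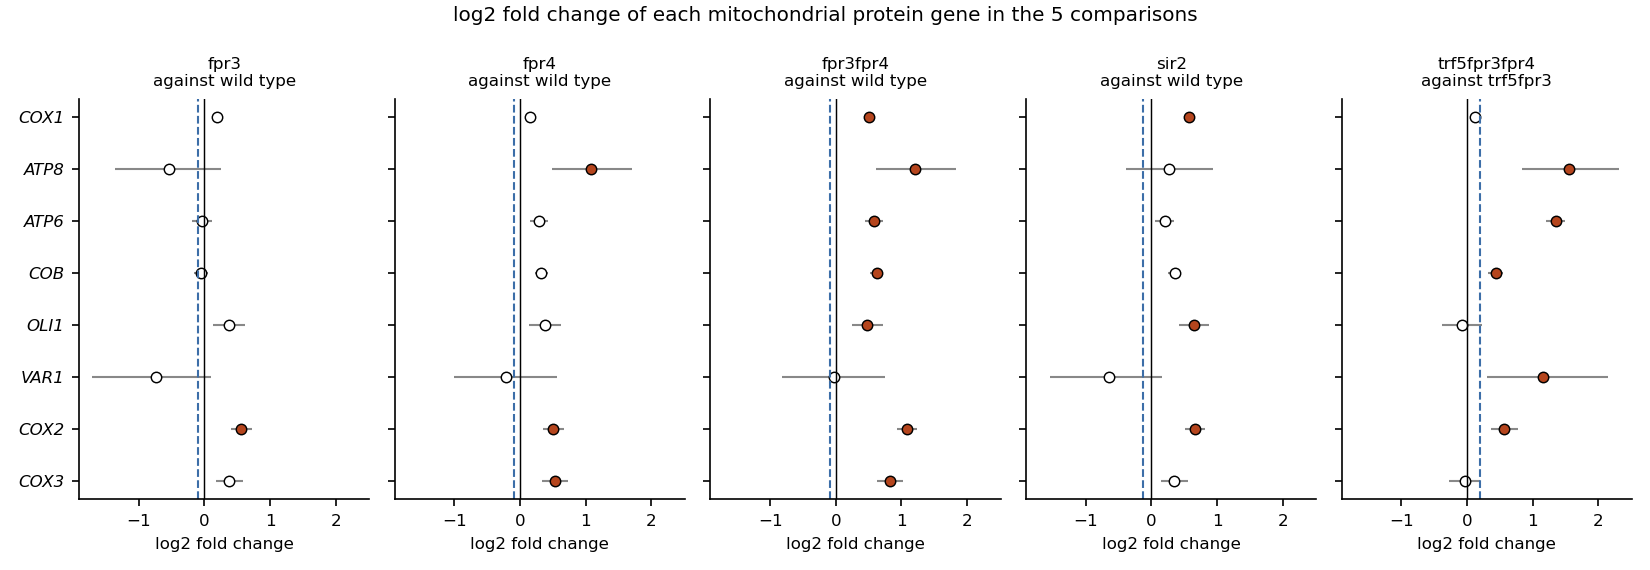
log2 fold change of each gene in the 5 comparisons of the design, with 95% counting intervals as lines. Filled points passed the calling rule, the solid line is 0 and the dashed line is the median of all genes tested: 7 filled points stand in *fpr3fpr4* against wild type, and all filled points lie to the right of 0.

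*ATP8* and *ATP6* separated the libraries by *FPR4*. After the values had been seen, the 3 libraries without *FPR4* were set beside the 4 with it, as a description with no test. *ATP8* ran from 461 to 585 RPKM without *FPR4* and from 149 to 263 with it. *ATP6* ran from 1062 to 2214 without and from 845 to 999.8 with it. For *ATP6* the gap between the groups was narrow, since *fpr4* stood at 1.06 times the level of *sir2* and their counting intervals overlap, whereas for *ATP8* the nearest libraries, *fpr4* and *sir2*, were 1.76 times apart. The other 6 genes overlapped between the groups. Of the 4376 genes with a mean RPKM of at least 10, 3.52% were higher in all 3 libraries without *FPR4*. Beside that background stand 2 of 8 members, which lie on 1 processed messenger in this species and so are not 2 separate RNAs.

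There are 3 pairs that differ in *FPR4* and share no library: *fpr4* and wild type, *fpr3fpr4* and *fpr3*, and *trf5fpr3fpr4* and *trf5fpr3*. They were set together after the values had been seen. Their libraries are also those of the grouping by *FPR4* above, so the calls below describe the same values again and are not further support. *ATP8* was called higher in all 3, at 1.08, 1.75 and 1.55, and *COX2* in all 3, at 0.51, 0.52 and 0.57. Of the 4651 genes tested in all 3 pairs, 11 were called higher in every one, which is 0.237%, and 2 of those 11 were on chrM. Among the 11, the smallest of the 3 values was highest for *ATP8*. Relative to the median of all genes, added after seeing the data, *COX2* was at 0.36 in the SGA pair and lost its call there. *ATP8* and *ATP6*, which share 1 messenger, were then called in all 3 pairs. They were 2 of 13 such genes, and the 13 are 0.280% of those tested. Without that rescaling, *ATP6*, *COB* and *COX3* were each called in 2 of the 3 pairs, *VAR1* in 1, and *COX1* and *OLI1* in none. For *COX2* the groups of libraries nonetheless overlapped, since *sir2* and *fpr3*, which have *FPR4*, stood above *fpr4* and *trf5fpr3fpr4*.

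**Figure D4:**
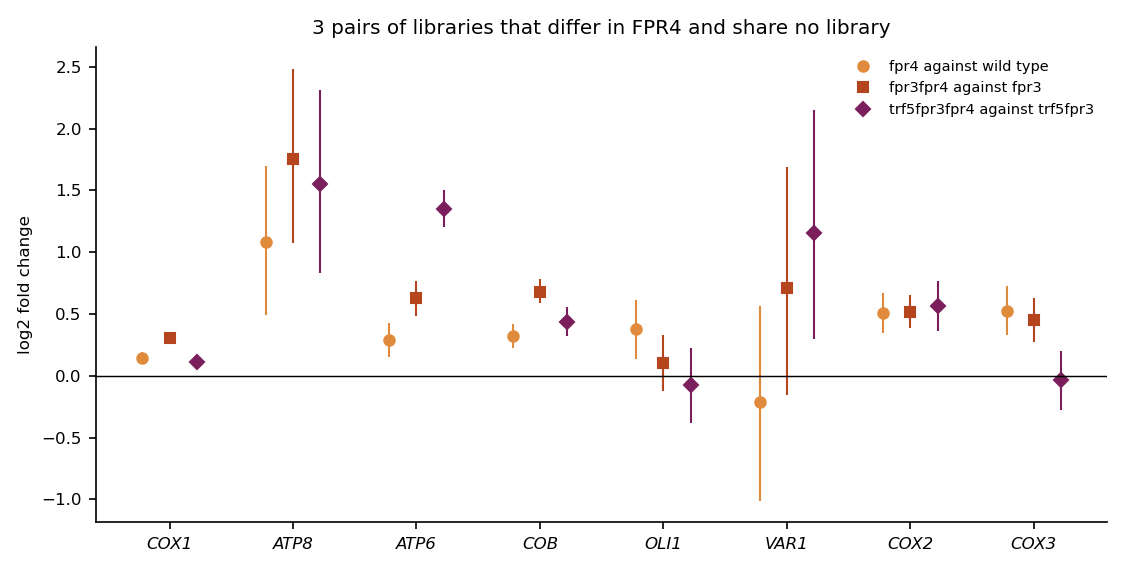
log2 fold change of each gene in the 3 pairs of libraries that differ in *FPR4* and have no library in common, with 95% counting intervals. *ATP8* lies at 1.08, 1.75 and 1.55 and *COX2* at 0.51, 0.52 and 0.57, while *OLI1* lies near 0 in the last 2 pairs and *VAR1* has the widest intervals.

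The members of 1 transcription unit did not move as 1. Per 100 *COX1* reads there were 11.2 *ATP6* reads in wild type (95% exact interval 10.4 to 12.1), 9.49 in *fpr3*, 12.4 in *fpr4*, 11.9 in *fpr3fpr4*, 8.66 in *sir2*, 10.3 in *trf5fpr3* and 24.3 (22.7 to 25.9) in *trf5fpr3fpr4*. The first 6 libraries lay between 8.66 and 12.4, and *trf5fpr3fpr4* stood apart from them. Per 100 *COX1* reads there were 0.529 *ATP8* reads in wild type (0.368 to 0.736), 0.316 in *fpr3*, 1.01 in *fpr4*, 0.866 in *fpr3fpr4*, 0.429 in *sir2*, 0.446 in *trf5fpr3* and 1.21 (0.907 to 1.58) in *trf5fpr3fpr4*. This ratio, from the same *ATP8* reads as above, was higher in the 3 libraries without *FPR4* than in the 4 with it. The intervals of the nearest libraries, *fpr3fpr4* (0.680 to 1.09) and wild type, overlap, and *COX1* reads include introns.

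*ATP8* and *ATP6* lie on 1 processed messenger in this species. Per 100 *ATP6* reads there were 4.72 *ATP8* reads in wild type (3.26 to 6.63), 3.33 in *fpr3*, 8.18 in *fpr4* (6.41 to 10.3), 7.30 in *fpr3fpr4* (5.70 to 9.24), 4.95 in *sir2* (3.63 to 6.62), 4.32 in *trf5fpr3* and 4.98 (3.72 to 6.55) in *trf5fpr3fpr4*. Within the SGA pair the ratio barely moved, and the intervals overlap, so the 2 genes were higher there by a like factor. In *fpr4* and *fpr3fpr4* the ratio was above that of wild type, *fpr3* and *sir2*, although the intervals of *fpr4* and *fpr3fpr4* overlap those of wild type and *sir2*.

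In the *OLI1* and *VAR1* unit there were 12.4 *VAR1* reads per 100 *OLI1* reads in wild type (8.22 to 17.98), 5.52 in *fpr3*, 8.16 in *fpr4*, 8.64 in *fpr3fpr4*, 4.91 in *sir2* (3.05 to 7.53), 7.76 in *trf5fpr3* and 18.9 (12.3 to 28.0) in *trf5fpr3fpr4*. *trf5fpr3fpr4* and wild type were the 2 highest libraries and their intervals overlap widely. *COX2* and *COX3* share no unit. There were 153 *COX2* reads per 100 *COX3* reads in wild type, 174 in *fpr3*, 151 in *fpr4*, 183 in *fpr3fpr4*, 189.6 in *sir2*, 113 (97.1 to 131) in *trf5fpr3* and 171 in *trf5fpr3fpr4*. *trf5fpr3* was the lowest, with an interval that lay below every other library's.

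The nested rows allow the reads of *COX1* and *COB* to be placed along each gene. The reading frames *AI1*, *AI2*, *AI3*, *AI4* and *AI5_ALPHA* are continuous with the upstream exons, so their rows all start at the *COX1* start codon (chrM:13818-26701 for the whole gene) and end in successive introns. The difference between successive rows gives the reads of each stretch, apart from reads that cross an end. The first stretch of *COX1*, of 2505 bases, had the densest reads in all 7 libraries, at 1004 RPKM in wild type and 1468 in *sir2*. The next, up to the end of *AI2*, had 542 to 831 RPKM, the third 159 to 273, the fourth 410.0 to 759, the fifth 180.5 to 362 and the last, of 3534 bases, 257 to 382. The first stretch alone held 35.8% to 41.8% of the reads of the *COX1* row, and 169 of its bases are exon.

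Along *COX1*, the log2 ratio of *fpr3fpr4* to wild type, here without a pseudocount, was 0.29 (0.21 to 0.36) in the first stretch, 0.51 in the second, 0.68 in the third, 0.78 (0.66 to 0.90) in the fourth, 1.0 (0.78 to 1.24) in the fifth and 0.57 in the last. The intervals of the first and of the fourth and the fifth stretches do not overlap, so the ratio was not the same along the gene. In *sir2* the values were between 0.53 and 0.71 and their intervals overlap. In *trf5fpr3fpr4* against *trf5fpr3* they ran from -0.16 (-0.33 to 0.0035) in the fourth stretch to 0.54 (0.21 to 0.86) in the third. The fourth stretch, which includes 477 exon bases, was thus the one with a negative ratio in the SGA pair and among the highest in *fpr3fpr4* against wild type.

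*COB* (chrM:36540-43647) holds the nested rows *BI2*, *BI3* and *BI4*, named for the maturase reading frames of its introns. Its first stretch, of 2040 bases, had 339 to 583 RPKM, the second 41.8 to 71.2, the third 170.0 to 288 and the last 92.7 to 178. The second stretch was the sparsest in every library, with 60 to 138 reads. The last stretch, of 1396 bases with 402 exon bases, showed the gene's clearest differences. It had 94.4 RPKM in wild type, 94.4 in *fpr3*, 136 in *fpr4*, 178 in *fpr3fpr4*, 141 in *sir2*, 92.7 in *trf5fpr3* and 175 in *trf5fpr3fpr4*. The log2 ratio there was 0.92 (0.62 to 1.22) in *fpr3fpr4* against wild type and 0.91 (0.55 to 1.28) in *trf5fpr3fpr4* against *trf5fpr3*, against 0.56 and 0.37 in the first stretch. The intervals of the first and last stretches overlap in the first of these comparisons but not in the second. The interval of the last stretch overlaps that of the third in both comparisons, and that of the second stretch in the SGA pair.

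**Figure D5:**
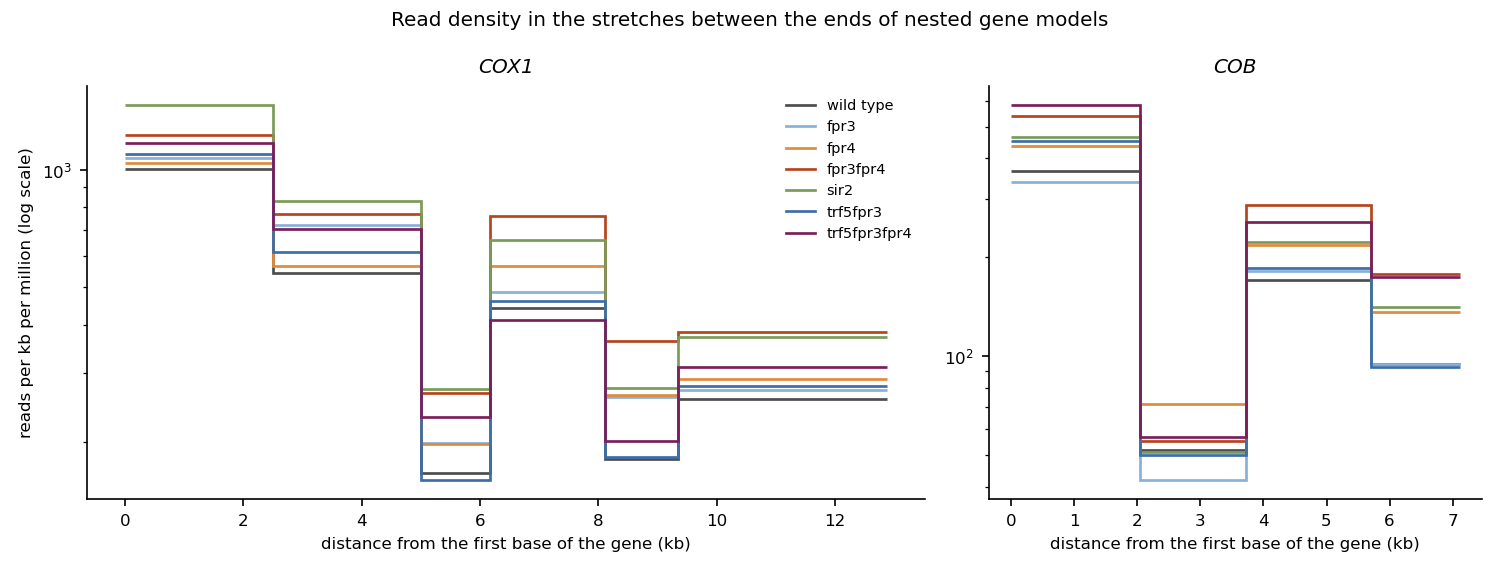
Read density (reads per kb, scaled to the library's counted reads, log scale) in the stretches between the ends of nested gene models, against the distance from the first base of *COX1*, left, and *COB*, right, 1 line per library. The first stretch is the densest of both genes in every library, and the second stretch of *COB* is the sparsest.

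The complexes are completed by subunits encoded in the nucleus, so lists of their nuclear genes were set beside the members. Of 33 tested nuclear subunits of complexes III, IV and V, 3 were called higher in *fpr3*, 2 in *fpr4*, 0 in *fpr3fpr4* and 2 in *sir2* against wild type. These are 9.09%, 6.06%, 0% and 6.06% of the list, beside 4.19%, 3.87%, 5.07% and 5.20% of all genes tested. In *fpr3fpr4* against *fpr3*, 1 was called higher and 3 lower, beside 5.09% and 4.90% of all genes. The single gene called lower in *fpr3fpr4* against wild type was *CYT1*, the cytochrome c1 gene, from 65 to 32 reads. Over all genes tested, 9.36% were called lower there, and 8.07% in *fpr3*, 9.27% in *fpr4* and 14.6% in *sir2*. The median log2 fold change of the 33 was 0.19 in *fpr3fpr4* against 0.61 for the 8 mitochondrial genes and -0.09 for all genes.

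The SGA pair differed from this. There 14 of the 33 nuclear subunits were called higher in *trf5fpr3fpr4* and none lower, or 42.4% beside 20.7% of all genes higher and 7.42% lower, with a median of 0.82 beside 0.20 for all genes. *ATP14*, a stalk subunit of the ATP synthase, went from 27 to 119 reads, a log2 fold change of 2.51 (1.91 to 3.18). *QCR7*, a small subunit of complex III, went from 49 to 114 reads, 1.60 (1.11 to 2.12), and *COX9*, a small subunit of complex IV, from 25 to 53 reads, 1.46 (0.76 to 2.22). In the same pair *COX1*, *COX3* and *OLI1* were not called.

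The other 4 lists hold nuclear factors of mitochondrial transcription and RNA decay, of single messengers, of intron splicing and of mitochondrial DNA maintenance. Of 47 such genes tested, 4 were called higher and 1 lower in *fpr3fpr4* against wild type, and 6 higher and 2 lower in the SGA pair. Over all genes, the shares were 5.07% higher and 9.36% lower in the first of these and 20.7% and 7.42% in the second. Against wild type, 1 was called higher and 1 lower in *fpr3*, 1 higher and 5 lower in *fpr4*, and 2 higher and 4 lower in *sir2*. Over all genes, the shares higher and lower were 4.19% and 8.07% in *fpr3*, 3.87% and 9.27% in *fpr4*, and 5.20% and 14.6% in *sir2*. In *fpr3fpr4* against *fpr3*, 3 were higher and 1 lower, beside 5.09% and 4.90% of all genes. *RPO41*, the mitochondrial RNA polymerase gene, was called lower in *fpr4*, from 238 to 185 reads, a log2 fold change of -0.43 (-0.72 to -0.15), where 3 of the 8 mitochondrial genes were called higher. *ABF2*, which codes for the protein that packages mitochondrial DNA, went from 139 to 223 reads in *fpr3fpr4*, 0.79 (0.48 to 1.11), and from 77 to 156 reads in the SGA pair, 1.4 (1.0 to 1.82). It was the only 1 called of 11 mitochondrial DNA maintenance genes in *fpr3fpr4* against wild type. The median of that list was -0.27 there, beside -0.09 for all genes. Of the same list, 0 were called higher and 2 lower in *fpr4*, 1 higher and 2 lower in *sir2*, and 3 higher and 1 lower in the SGA pair. *NCA3*, a gene named for its part in the control of *ATP8* and *ATP6* messengers together with *NCA2*, went from 11 to 39 reads in *fpr3fpr4* against wild type, 1.84 (0.95 to 3.06), and from 7 to 131 reads in the SGA pair, 4.45 (3.53 to 5.95). It went from 17 to 39 reads between *fpr3* and *fpr3fpr4*, 1.26 (0.46 to 2.23), and was called higher there too. In *fpr4* against wild type, where *ATP8* was called higher, *NCA3* went from 11 to 25 reads, 1.04 (0.04 to 2.28), and was not called. Whether *NCA3* plays a part in the *ATP8* and *ATP6* levels was not tested. *SLS1*, a gene of mitochondrial gene expression, went from 15 to 43 reads in *fpr4*, 1.33 (0.57 to 2.40), and was called higher. It was also called higher in *fpr3*, from the same 15 wild-type reads to 38, 1.23 (0.45 to 2.31). Against those 15 reads it was not called in *fpr3fpr4*, at 0.82 (-0.06 to 1.93), or in *sir2*, at 0.90 (0.08 to 1.98). Nor was it called in *fpr3fpr4* against *fpr3* at -0.41, or in the SGA pair at -0.01. *AEP1*, a factor for the *OLI1* messenger, was called lower in *fpr3fpr4* against wild type, from 53 to 16 reads, -1.52 (-2.52 to -0.78), where *OLI1* was called higher. *ATP25*, also a factor for that messenger, was called lower in the SGA pair, from 28 to 7 reads, -1.47 (-3.06 to -0.39). In *sir2* against wild type, where *OLI1* was called higher, *ATP25* was called higher too, from 26 to 57 reads, 0.90 (0.25 to 1.68). *CBS1*, a translation factor for *COB*, went from 4 to 24 reads in *fpr3fpr4*, 2.49 (1.16 to 4.69), on very few reads.

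Among 4358 nuclear genes with a mean RPKM of at least 10, the 5 whose log2 profile over the 7 libraries, centred on its mean, lay nearest to the median profile of the 8 genes were *EMG1*, *NOC4*, *SYO1*, *SEC4* and *TRM7*. Their root mean square differences from that profile were 0.07 for *EMG1*, 0.11 for *NOC4*, *SYO1* and *SEC4* and 0.12 for *TRM7*, where the median nuclear gene lay at 0.40. Of the members themselves, *COB* lay nearest, at 0.09, and *ATP8* farthest, at 0.54, with *VAR1* at 0.41 and *ATP6* at 0.33. The median profile ran from -0.33 in wild type to 0.29 in *fpr3fpr4* on the centred log2 scale. These distances rest on 7 libraries that share their normalization, and are given as a description. The profile was made from the 8 members themselves, and the 5 nuclear genes were picked as the nearest of 4358. Small distances are thus partly built in for both.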

How the data were processed

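RNA-seq of ribo-minus RNA from 7 yeast genotypes, 1 library each, was analysed. Per the methods, the authors aligned 100-base paired reads to sacCer3 with BWA, dropped reads below a mapping quality of 5, collapsed duplicate fragments and counted reads on the proper strand. The authors deposited for each of 5110 genes an integer count of reads without normalization. They also deposited an RPKM under another column name, which equals the count over the gene span and the summed counts within 0.0980% for genes above 20 reads. No RNA-specific aligner was used, so reads across splice junctions may be lost, and reads in nested chrM rows are counted in each row.

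Groups came from the labels. The members and the lists of nuclear genes were chosen with earlier results of these data known. All 18 chrM rows matched the reference in start and end. Calls used the chi-square statistic of the gene's reads (1 degree of freedom), as in the study's methods, Benjamini-Hochberg adjustment at 0.05, a 1.3-fold change on log2(RPKM + 1) and more than 5 reads in both libraries together. Fold intervals are exact binomial and share intervals Wilson, at 95%. A count of 0 would allow up to 3 reads, or 0.000241% to 0.000478% of a library. Shares of chrM reads count each read once (the 8 genes and *SCEI*). The calling function was tested on simulated counts. Named genes were the 8 members, other chrM rows, the deleted genes, up to 3 called members of each nuclear list per comparison with the largest change, of which some are printed, and the 5 nuclear genes nearest in profile. *NAM1* and *MRX1* of the lists did not match a symbol. Python 3 with numpy, pandas, scipy and Biopython was used. Alternatives were other pseudocounts, folds, filters, tests, scalings and denominators. Comparisons of *fpr3fpr4* with each single mutant and the grouping by *FPR4* were added after seeing the data.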

Additional observations from a re-analysis of the deposited data

How the results depend on the processing

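Of 192 recomputed fold changes of single members, under pseudocounts of 0.1 and 5, rescaling to a median of 0 and scaling to reads outside chrM, 176 kept their direction and their side of the calling rule. Rescaling turned *ATP6* and *COB* in *fpr3* to 0.064 and 0.048, *VAR1* in *fpr3fpr4* to 0.058 and *COX1* in *trf5fpr3fpr4* to -0.090. It made the number of genes called higher 3 in *fpr3*, 6 in *fpr4*, 5 in *sir2* and 3 in *trf5fpr3fpr4*; scaling to reads outside chrM gave 3 in *fpr3*. At 1.5-fold the calls were 0 in *fpr3*, 1 in *fpr4*, 3 in *trf5fpr3fpr4* and 3 in *fpr3fpr4* against *fpr3*. At 2-fold they were 0 in *fpr3*, 1 in *fpr4*, 2 in *fpr3fpr4*, 0 in *sir2*, 3 in *trf5fpr3fpr4* and 1 in *fpr3fpr4* against *fpr3*. Without a test, 2 genes were past the fold downward in *fpr3* and 1 in *sir2*. The share of all genes called was not computed under these other rules for single comparisons, so these counts have no background beside them. The exact binomial test and both other filters on reads moved no count by over 1.5 times. Without *COX1* and *COB* the median in *trf5fpr3fpr4* was 0.86 in place of 0.50. The share of counted reads without *COX1* and *COB* was 0.178%, 0.214%, 0.238%, 0.306%, 0.239%, 0.187% and 0.320% in the order wild type, *fpr3*, *fpr4*, *fpr3fpr4*, *sir2*, *trf5fpr3* and *trf5fpr3fpr4*. Per 100 reads of nuclear protein genes, the 8 genes had 0.945, 1.07, 1.11, 1.43, 1.37, 1.03 and 1.29 reads in that order. The libraries without *FPR4* stayed above those with it for *ATP8* and *ATP6* when scaled to reads outside chrM, to the median of all genes or to the 8 genes' reads, though for *ATP6* in the last only by a ratio of 1.01. No paired analysis was possible because with 1 library per genotype no groups share 2 replicate numbers; a fit over the 3 pairs that differ in *FPR4* was not run, since they were set together after their values were seen. The main limit is the absence of replicates, and for *ATP8* and *VAR1* also their few reads.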

Other observations

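*SCEI*, the chrM row that is neither a member nor nested in one, codes for the endonuclease I-SceI in the intron of the large mitochondrial rRNA. It had 75 reads in wild type, 96 in *fpr3*, 111 in *fpr4*, 109 in *fpr3fpr4*, 162 in *sir2*, 62 in *trf5fpr3* and 57 in *trf5fpr3fpr4*, or 96.9 to 184 RPKM. Like *COX1* and *OLI1*, it was lowest in wild type and highest in *sir2*. *AI5_BETA*, an intron reading frame inside the last stretch of *COX1*, had 45 to 131 reads, or 60.9 to 95.9 RPKM, with the highest value again in *sir2*.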
